A study of Homo sapiens with 4 samples.

Results

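Of the 9107 distinct HNRNPC CLIP peaks deposited for MDA-MB-231 cells, 7782 (85.5%) had their centre in an intron, and 4583 of these carried no Alu sequence. These 4583 non-Alu intron peaks made up 58.9% of the intron peaks and 50.3% of all HNRNPC peaks. A peak was counted when its centre lay, on its own strand, in a GENCODE 44 intron and in no exon of any transcript, and when the peak with 100 nt added on each side had no match to an Alu consensus at an E-value of at most 1e-05. The remaining 3199 intron peaks matched Alu, 95.4% of them in the antisense direction, and are called Alu intron peaks here. Nearest to the limit, a TET3 peak of 7 tags was kept at an E-value of 1.62e-05 and an EHMT1 peak of 60 tags was left out at 5.84e-06. Just 23 non-Alu peaks had a match between the limit and 0.001.

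The cells were MDA-MB-231, an established line of triple-negative breast cancer, with no other treatment named, crosslinked with 400 mJ/cm2 of 254 nm ultraviolet light. HNRNPC and its bound RNA were recovered with an antibody to the endogenous protein (irCLIP). PABPC4, a poly(A)-binding protein that shuttles between nucleus and cytoplasm, was mapped separately by PAPERCLIP. Each protein had 2 samples, deposited as 1 pooled peak list, so each peak has 1 height and no spread between replicates. Peaks of 1 list are not replicates of a condition, and the p-values below measure the spread between peaks.

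HNRNPC is an abundant nuclear protein of the particles that package newly made pre-mRNA. It is known for binding continuous U tracts. In introns these tracts are often supplied by Alu elements inserted in the antisense direction, where HNRNPC is known to keep cryptic splice sites from being used. The peaks described here are those in introns but away from that well-known target.

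A short string, GUGUCA, recurred at the 3′ ends of these peaks, as it did at other HNRNPC peaks. Below, 30 nt around the 3′ end are given for the 7 tallest non-Alu peaks that held it and for a lower one in CPSF4, the tallest that held it near a 3′ splice site, with the last 20 nt of the peak first, the 10 nt after it following, and GUGUCA in capitals.
SLC35F3 (hg38 chr1:233999657-233999686, plus strand): ucccccaGUGUCAgucaaaggcugccucug
PALM2AKAP2 (chr9:110103991-110104020, plus strand): uuugaGUGUCAgccacaucuucuuuaggac
FZR1 (chr19:3511998-3512027, plus strand): ccccuGUGUCAguccaccccugcaaccacg
SEPTIN9 (chr17:77328248-77328277, plus strand): cuccaccaacagGUGUCAgcugugaaaugc
GCNT2 (chr6:10558052-10558081, plus strand): agcucucagGUGUCAgcagcucugauacuc
PRKCA (chr17:66789479-66789508, plus strand): ggagugaGUGUCAgccaccaauucuaaugu
ZNF767P (chr7:149615713-149615742, minus strand): ucggucuuccGUGUCAgacagcgucacaua
CPSF4 (chr7:99452226-99452255, plus strand): gcuuGUGUCAgucacuuugugcuggggcag
All 8 windows continued with G after the motif. For contrast, the same window is given for 3 tall peaks without GUGUCA, where no letter is in capitals.
PTTG1IP (chr21:44867622-44867651, minus strand): cagacgugagcaucagucacagacaugagc
HMGA1 (chr6:34244516-34244545, plus strand): uagggagucagucacauccugaagcucauu
CMIP (chr16:81483741-81483770, plus strand): auccucaguguuggucacuuauggcuuuug
PTTG1IP and HMGA1 held CAGUCA, a related string, at the place where the motif stood in the other peaks.

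The 6 bases GUGUCA stood within the last 20 nt of the peak or the 10 nt after it in 2270 of 4583 non-Alu intron peaks, or 49.5% (95% Wilson interval 48.1 to 51.0%). Windows of the same size placed 500 nt to either side in the same intron held it in 55 of 8566 cases, or 0.642%, which gave a ratio of 77.1. Among Alu intron peaks the share was 21.3%, and among HNRNPC peaks with their centre outside introns it was 31.5%. The motif began most often 8 nt before the peak end, with quartiles of the start at 4 and 9 nt before it. With each position counted alone, its next base was G in 87.8% of cases, the base after it U in 38.6% and the one after that C in 35.9%. The 7 bases GUGUCAG were matched with at most 1 difference by 58.4% of non-Alu peaks, by 35.0% of Alu peaks and by 4.38% of the neighbouring windows. Among the 2313 peaks without GUGUCA, 184 (7.96%) held CAGUCA or AGUCAC in the same window, against 1.16% of neighbouring windows, and 185 (7.998%) held GUGUCU. The labels name irCLIP, whereas the deposited list is marked HITS-CLIP, and a 3′ linker of some HITS-CLIP protocols is known to begin with GUGUCAG. The adaptor and reverse transcription primer of the HNRNPC libraries are not given in the sources used here. Whether peaks that end in the motif are sites of HNRNPC binding or come from library preparation was not tested, and this limit holds for every count and height of such peaks below.

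**Figure D1:**
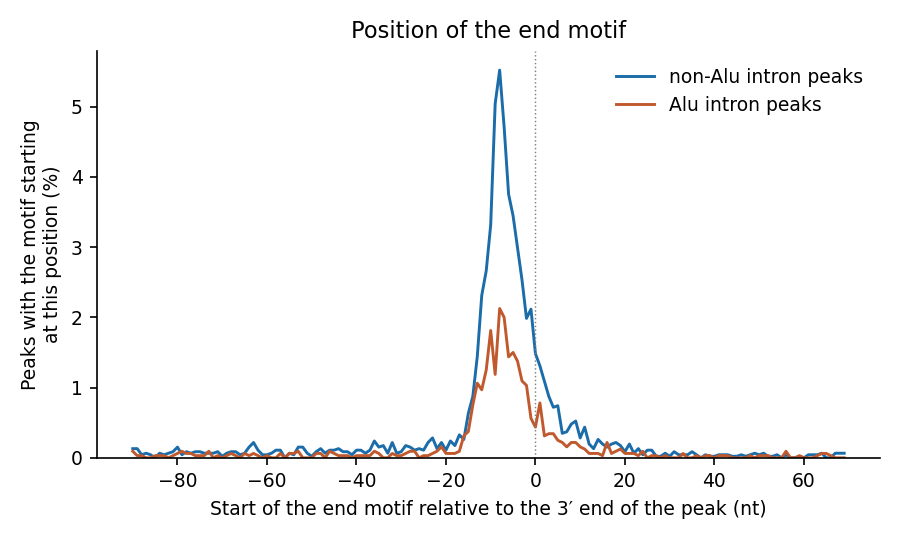
The share of peaks (%) in which GUGUCA starts at each position (nt) relative to the 3′ end of the peak, marked by the dotted line, for the 4583 non-Alu and the 3199 Alu intron peaks. Both lines rise in a narrow zone just before the peak end, to 5.52% of non-Alu peaks at 8 nt before it.

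U runs were not more frequent at these peaks than in neighbouring windows. UUUUU lay in the 50 nt upstream of 549 non-Alu peaks, or 11.98% (11.1 to 12.95%), against 14.4% of neighbouring windows in the same introns (13.7 to 15.1%). The Alu intron peaks had it in 59.5%, against 22.8% of windows 500 nt from them. For the shorter string UUUU the non-Alu share was 29.2%, against 30.0% of neighbouring windows, and for UUUUUU it was 4.36%, against 6.58%. Inside the peak, the first 50 nt held UUUUU in 4.45% of non-Alu peaks, against 14.5% of neighbouring windows. Median GC content was 54.5% in the non-Alu peaks and 47.4% in the neighbouring windows, and its part in these shares was not tested. The classes were chosen by sequence, and the neighbouring windows were not screened for Alu, which often supplies U runs. The comparisons with Alu peaks and with these windows are therefore descriptions.

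**Figure D2:**
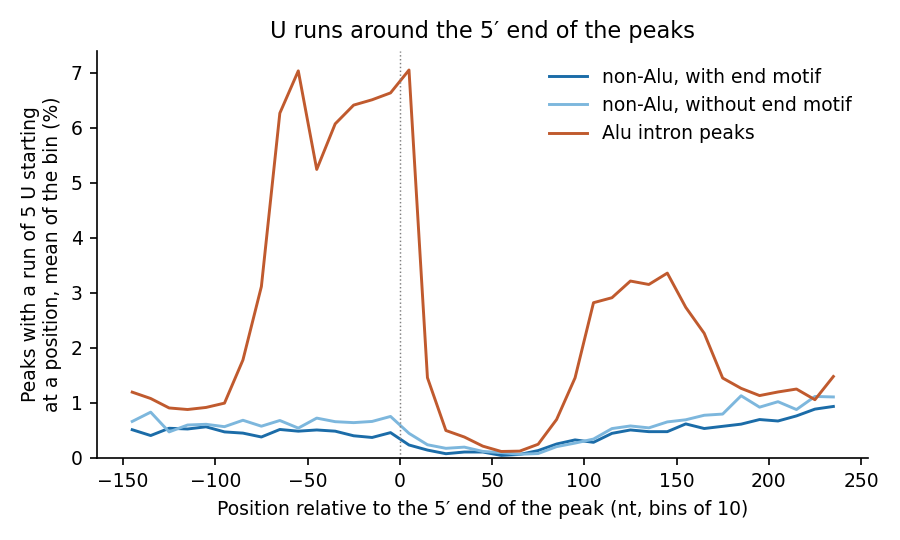
The share of peaks (%) in which a run of 5 U starts at a position, averaged in bins of 10 nt, from the 5′ end of the peak (dotted line), for non-Alu peaks with and without GUGUCA at the 3′ end and for Alu peaks. Alu peaks reach 7.05% at the 5′ end, whereas the non-Alu classes lie between 0.370% and 0.752% in the 60 nt before it and are lower inside the peak.

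Some tall peaks did carry a U run at the 5′ end. Of the 170 peaks of 50 tags or more, 20 (11.8%) had UUUUU in the 50 nt upstream, against 14.4% of neighbouring windows. Of the 5 tallest that had UUUUU upstream and no GUGUCA, 3 had the run within 15 nt of the peak start. The 5′ ends of ACIN1 and TSPAN14, which were among these, are shown with 15 nt before the start, 15 nt inside the peak, and the first run of at least 5 U in capitals.
ACIN1 (hg38 chr14:23070907-23070936, minus strand): uaUUUUUUUUguauaagccuuuucucuaga
TSPAN14 (chr10:80472835-80472864, plus strand): agugggggcUUUUUcaagcugcugugaaug
ACIN1, a nuclear protein linked to the exon junction complex, had the tallest of them with 187 tags. BCAR3, an adaptor of integrin signalling, had 115 tags and MAMLD1 108. EGFR, a receptor tyrosine kinase amplified or overexpressed in many carcinomas, had a peak of 87 tags in intron 1, and TSPAN14, a tetraspanin, one of 82. Having no GUGUCA did not mean having no related string at the 3′ end. The TSPAN14 window held CAGUCA and matched 6 bases of GUGUCAG, and BCAR3 matched 5. ACIN1, MAMLD1 and EGFR matched 4, although the EGFR window began with UGUCAG.

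Heights, the largest number of unique tags stacked in a peak, ran from 3 to 304 tags with a median of 12. The quartiles were 8 and 18 tags. Alu intron peaks had a median of 11 tags and a maximum of 426. The quartiles of Alu peaks were 8 and 16 tags, so the classes largely overlapped. The mean log2 height was 0.14 higher in non-Alu peaks (0.10 to 0.18), which is small beside the spread of single peaks but passed the test of the means (permutation test, two-sided, p = 1e-05, the smallest that 100000 resamples can give; 2.5e-05 adjusted over 10 tests). Median width was 102 nt, against 98 nt for Alu peaks.

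The tallest peak, of 304 tags, was at chr1:233999538-233999676 in intron 2 of SLC35F3, a gene of the solute carrier family. PALM2AKAP2, which encodes paralemmin and A-kinase anchor sequences, had one of 244 tags in intron 7 at chr9:110103853-110104010. FZR1, an activator of the anaphase-promoting complex, followed with 197 tags in intron 1. Next came ACIN1 with 187 tags, SEPTIN9, a cytoskeletal GTPase, with 186, and GCNT2, a glycan-branching enzyme, with 179. PRKCA, protein kinase C alpha, had 169 tags in the last of its 16 introns. PTTG1IP had 168, the lncRNA ZNF767P 165 and CMIP 164. Of these 10 peaks, 7 held GUGUCA at the 3′ end, and ACIN1, PTTG1IP and CMIP did not.

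Height differed between peaks that ended in the motif and those that did not. Median height was 13 tags with GUGUCA and 11 without it, and the mean log2 height differed by 0.28 (0.23 to 0.33; permutation test, two-sided, p = 1e-05, adjusted 2.5e-05). The motif was present in 40.8% of the 750 peaks of 3 to 7 tags, in 44.5% of those of 8 to 11, in 50.7% of those of 12 to 17, in 58.5% of those of 18 to 49 and in 68.2% of the 170 peaks of 50 tags or more. No such order was seen for UUUUU upstream, whose share stayed between 11.2% and 12.5% in the 5 height classes. Peaks with the motif had UUUUU upstream in 10.7% of cases and the others in 13.2%, a difference of -2.52 percentage points (-4.40 to -0.645; Fisher's exact test, two-sided, p = 0.00947, adjusted 0.0189). With 1 peak per host gene and class that difference was no longer past the threshold (Fisher's exact test, p = 0.638).

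**Figure D3:**
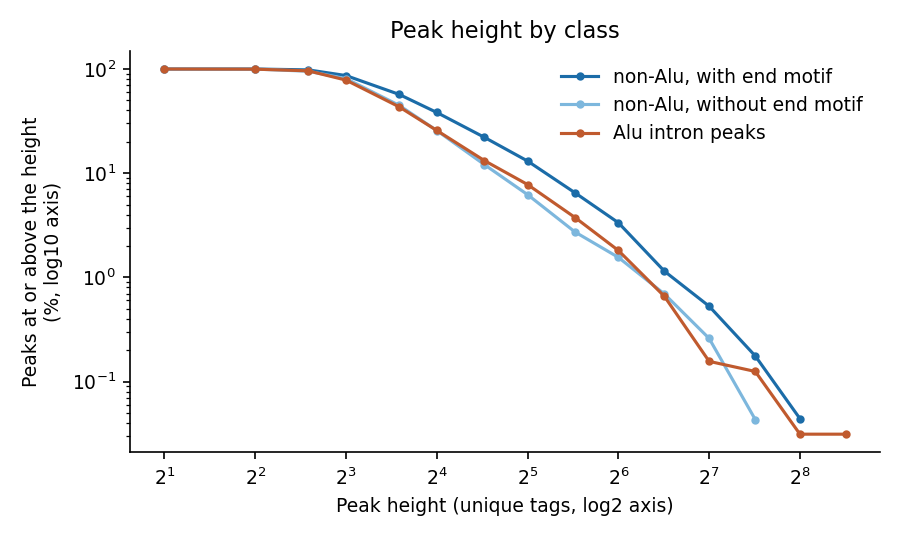
The share of peaks (%, log10 axis) at or above each height in unique tags (log2 axis), for non-Alu peaks with and without GUGUCA at the 3′ end and for Alu peaks. The line of the peaks with the motif lies above the other 2 from 8 to 182 tags.

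The peaks lay in 2952 introns of 2249 host genes, with 95.0% of the peaks in protein-coding genes and 4.84% in lncRNA genes. Where several introns covered a peak, a protein-coding gene was taken before a lncRNA gene. The canonical transcript and then the longest intron came next, so these shares and lengths depend on that order. The introns of the peaks were long, with a median of 33329 nt. In introns over 100000 nt lay 982 peaks (21.4%), whereas 70 were in introns under 1000 nt. For comparison, the median intron of canonical protein-coding transcripts measured 1552 nt, but the median intron base of the host genes lies in an intron of 42619 nt. Alu intron peaks had a median intron length of 25426 nt. The mean log2 length was 0.28 higher for non-Alu peaks (0.19 to 0.38; permutation test, two-sided, p = 1e-05, adjusted 2.5e-05), and with 1 peak per gene and class it was 0.11 higher and not past the threshold (p = 0.0935). The lncRNA share of 4.84% compared with 3.72% in Alu peaks (Fisher's exact test, p = 0.018, adjusted 0.03), and it was not past the threshold with 1 peak per gene and class (p = 0.296).

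Intron 1 held 1781 of the peaks, or 38.9% (37.5 to 40.3%). Intron 1 makes up 24.4% of the canonical intron bases of the host genes and 6.93% of their introns by number. A further 15.3% of peaks were in intron 2, 8.82% in intron 3 and 37.1% in later introns. The Alu intron peaks had 39.4% in intron 1, which differed by -0.589 percentage points (-2.80 to 1.61; Fisher's exact test, two-sided, p = 0.604). When each peak was given the shortest intron covering it in any transcript, the difference became 3.62 points (Fisher's exact test, p = 0.00151), so its direction depends on the transcript. Within the intron the peaks leaned towards the 5′ end. The first 10% of the intron length held 14.4% of them and the last 10% held 4.67%, and the median peak lay 37.6% of the way along. Alu intron peaks shared this lean, with 10.0% in the first 10%, 3.75% in the last 10% and a median of 38.5%.

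Non-Alu and Alu intron peaks differed in position at 5′ splice sites. Within 500 nt downstream of a 5′ splice site (donor) lay 456 non-Alu peaks, or 9.95% (9.12 to 10.9%), against 7.54% of all positions of the same introns. Among Alu intron peaks the share was 5.16%, which was 4.79 percentage points lower (3.62 to 5.94; Fisher's exact test, two-sided, p = 4.73e-15, adjusted 4.73e-14). Within 100 nt the shares were 2.38% and 0.313%, and within 2000 nt they were 27.2% and 25.4%, where the difference of 1.83 points did not pass the threshold (Fisher's exact test, p = 0.0758). An Alu element has a consensus of 281 nt here and so needs room next to an exon, and its part in this difference was not tested. The positions of the same introns were not screened for Alu, whereas the non-Alu peaks were, so setting 9.95% beside 7.54% is a description. Peaks near donors had a median GC content of 58.9%, against 54.1% for those near neither splice site, and 39.0% of them were in intron 1.

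The tallest peaks within 500 nt of a donor were those of ACIN1 (187 tags, 324 nt from the donor) and PRKCA (169 tags, 451 nt). ARAP1, a GTPase-activating protein, had 163 tags at 454 nt. SEC16A, which organizes exit sites of the endoplasmic reticulum, had 156 tags at 311 nt, and NDOR1, a flavoprotein reductase, had 96 tags at 471 nt. Of these 5 peaks, PRKCA, SEC16A and NDOR1 held GUGUCA at the 3′ end.

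Upstream of 3′ splice sites (acceptors), where pyrimidine tracts lie, the peaks were not enriched. Within 500 nt lay 260 peaks, or 5.67% (5.04 to 6.38%), against 6.91% of positions of the same introns. The Alu intron peaks had 5.03%, and the difference of 0.640 points did not pass the threshold (-0.390 to 1.64; Fisher's exact test, two-sided, p = 0.222). Within 100 nt the shares were 0.916% and 0.344% (Fisher's exact test, p = 0.00288). The non-Alu share lay below the 1.42% of positions of the same introns within 100 nt, which were not screened for Alu. The classes were split by Alu match, and an Alu element needs room next to an exon here too. The part of this need in the difference within 100 nt was not tested, so no conclusion is drawn from that test. Within 2000 nt the direction turned, with 19.6% and 23.4% (Fisher's exact test, p = 7.84e-05). UUUUU upstream was found in 7.69% of the 260 peaks. The motif GUGUCA stood at the 3′ end in 53.5% of them. Peaks with and without GUGUCA had 6.12% and 5.23% near an acceptor (Fisher's exact test, two-sided, p = 0.202, interval of the difference -0.451 to 2.24 points).

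The tallest near an acceptor was in HMGA1, a chromatin architectural protein, with 138 tags at 387 nt from the acceptor of its last intron. CPSF4, a subunit of the polyadenylation machinery, had 88 tags at 202 nt. BCAR1, a scaffold of focal adhesions, had 80 tags at 172 nt and HGS, which sorts ubiquitinated receptors in endosomes, had 77 at 382 nt. SMC1A, a cohesin subunit, had 64 tags at 68 nt.

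**Figure D4:**
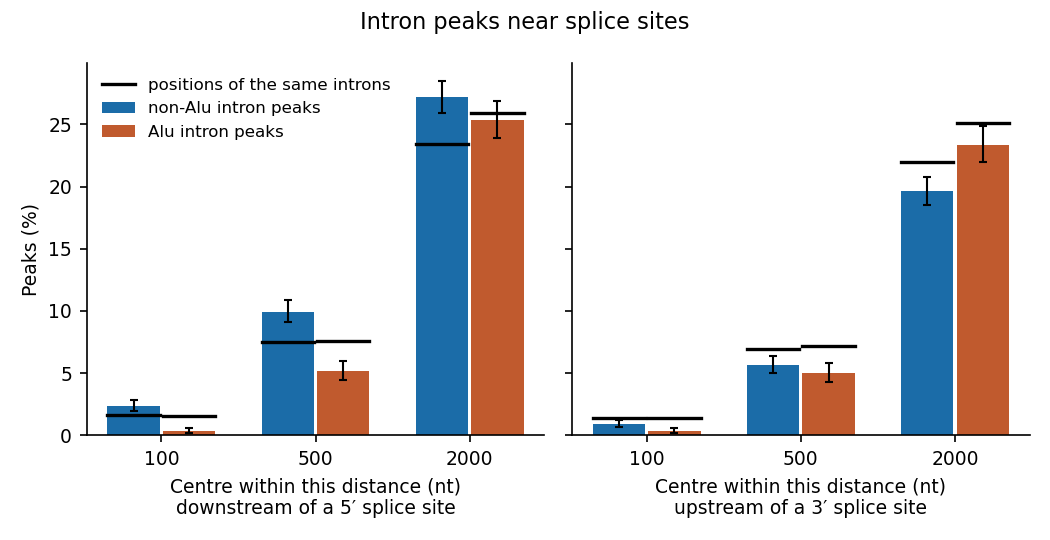
The share of peaks (%) whose centre lies within 100, 500 or 2000 nt downstream of a 5′ splice site (left) or upstream of a 3′ splice site (right), for non-Alu and Alu intron peaks. Bars are shares with 95% Wilson intervals and the black lines give the share of all positions of the same introns. These positions were not screened for Alu. Non-Alu peaks are above their line at all 3 distances from 5′ splice sites, and below it at all 3 distances from 3′ splice sites.

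A part of the peaks lay in sequence that occurs elsewhere in the genome. The peak with 100 nt on each side matched 10 or more places on chromosome 20, the chromosome used for this count, in 570 cases (12.4%). These repeated windows lay deeper in introns, with a median of 10332 nt from the donor against 5525 nt for the other peaks, and 29.8% of them were in intron 1 against 40.1%. GUGUCA stood at the 3′ end in 49.1% of the repeated and 49.6% of the other peaks. Grouped by similarity to each other, 555 peaks formed 52 families of 2 or more. The largest held 154 peaks in 146 genes, with UUUUU upstream in 26.0%. A family of 128 peaks in 117 genes had GUGUCA in 57.0% and one of 68 peaks in 65 genes in 66.2%, and UUUUU was upstream in 5.47% and 5.88% of them. The families are not named, because no repeat library was used here. Tandem repeats were found in 215 windows (4.69%), 61 of them of U alone and 23 of GU. Small RNA genes overlapped 3 peaks, in CHD2, KIF15 and GOLGA1. The repeated, tandem and small RNA counts were made for the non-Alu peaks alone. Whether they are high or low for introns or for HNRNPC peaks is therefore not shown. An Alu match first appeared when the search was widened from 100 to 250 nt on each side in 764 peaks (16.7%).

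Most host genes held a single peak. There were 1417 genes with 1, 666 with 2 to 4 and 166 with 5 or more, and the 48 genes with at least 10 held 778 of the 4583 peaks. Of the 2249 host genes, 33.5% also had an Alu intron peak, and 40.2% of the 1873 genes with an Alu intron peak had a non-Alu one. Over all 19054 protein-coding genes with an intron, 11.3% held a non-Alu peak, and no such share was counted for Alu peaks. Intron length and expression of the genes were not taken into account. The share with GUGUCA was lower in genes with more peaks, a description with no test. It was 56.7% in genes with 1 peak (54.1 to 59.2%), 53.4% with 2 to 4, 46.0% with 5 to 9 and 31.5% with 10 or more (28.3 to 34.8%). The share with UUUUU upstream was 11.6% in the first class and 12.5% in the last. Median width was 93 and 126 nt and median intron length 14987 and 98534 nt in the same pair of classes. The lowest height called differed between genes, for example 5 tags in RUNX1 and 17 in EXT1, and its part in this order was not tested.

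RUNX1, a transcription factor of blood cell development, held the most, with 46 peaks of 5 to 88 tags (median 6) in 5 introns. EXT1, which elongates heparan sulfate chains, had 42 peaks of 17 to 93 tags, all in its intron 1 of 272883 nt. TRIO had 31, PRKCA 29 and PTPRM, a receptor phosphatase, 28. CMIP had 23 peaks, all in intron 1. The chromatin protein HMGA2 had 22, all in intron 3, and NAV2, a microtubule-associated protein, had 22. PALM2AKAP2 had 21, as did LINC-PINT, a p53-induced lncRNA. GUGUCA was rare in several of these genes, with 6 of 46 peaks in RUNX1, 4 of 42 in EXT1 and 0 of 21 in LINC-PINT, whereas CMIP had it in 11 of 23. The ratio to Alu peaks varied too, from 29 of each in PRKCA to 22 against 2 in NAV2.

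**Figure D5:**
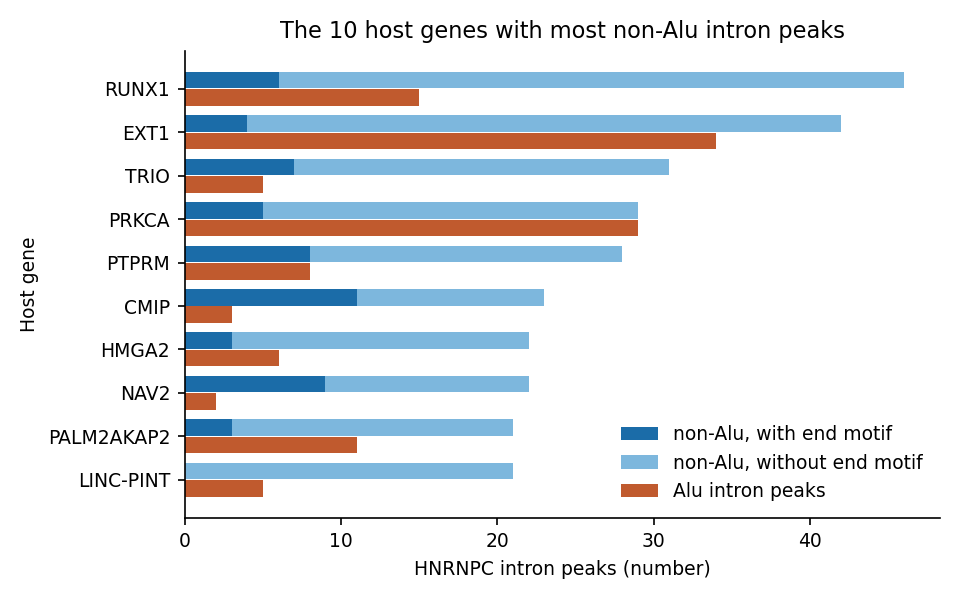
The number of HNRNPC intron peaks in the 10 host genes with most non-Alu peaks. The upper bar of each gene is split into non-Alu peaks with GUGUCA at the 3′ end (dark) and without it (light), and the lower bar counts Alu intron peaks. RUNX1 leads with 46 non-Alu peaks, and the light part exceeds the dark part in all 10 genes.

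Among the 19054 protein-coding genes with an intron, 11.3% held at least 1 non-Alu intron peak. Of 23 HNRNP genes 6 did, with 1 peak each, HNRNPC itself and HNRNPD, HNRNPH3, HNRNPL, HNRNPM and HNRNPUL1. A single one of 12 SR splicing factor genes did, SRSF4. Of 26 integrin genes 6 did, led by ITGB1 with 3 peaks. Among 58 receptor tyrosine kinase genes 12 did, with 20 peaks in EGFR and 6 in EPHB2. Ubiquitin-specific proteases had 10 of 50, with at most 2 peaks in a gene. A list of histone methyltransferase genes, drawn up by symbol prefix, had 12 of 44, with 11 peaks in EHMT1, 7 in NSD2 and 6 in DOT1L. The prefixes do not cover the whole class, nor do they establish activity on histones for each gene. SMYD3, outside the list, had 14 peaks. Intron length differs between these lists, from a median of 6.93 kb of intron per gene in the SR genes to 70.1 kb in the receptor tyrosine kinases and 21.9 kb over all genes, and expression of the host genes was not used here. PDLIM5, which the study followed, had 4 HNRNPC intron peaks of up to 13 tags, all with an Alu match, and so 0 among the non-Alu peaks.

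Overlap with PABPC4 was rare in both classes of intron peaks. A PABPC4 peak on the same strand overlapped 17 of 4583 non-Alu peaks, or 0.371% (0.232 to 0.593%), and 17 of 3199 Alu peaks, or 0.531% (Fisher's exact test, two-sided, p = 0.3, interval of the difference -0.508 to 0.138 points). A PABPC4 peak lay within 500 nt of 6.76% and 6.47% of them. No share over all HNRNPC peaks is given here, so how these values compare with the whole list is not shown. The paper reports PABPC4 binding for the majority of HNRNPC 3′ UTR targets, which is a count of 3′ UTR targets and not of these intron peaks.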

How the data were processed

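HNRNPC was mapped by irCLIP and PABPC4 by PAPERCLIP in MDA-MB-231 cells, with 2 samples each. For HNRNPC, the authors collapsed reads by molecular identifier (UMI-tools), trimmed them (cutadapt), aligned them to hg38 (BWA 0.7.17), removed duplicates and called peaks with the valley-seeking method of CTK. The methods speak of peak boundaries combined across experiments, and both deposited lists are marked as made from pooled unique tags. The deposited lists give each peak's height as a count of unique tags. The methods also describe a union with a published HNRNPC iCLIP set, and whether the deposited list includes it is not stated. Total depth is not held in the lists, so intervals cover counting of peaks only.

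Each position was used once (the HNRNPC list repeats some under several gene IDs). Introns came from GENCODE 44. Where several covered a peak, a protein-coding host gene was preferred, then a lncRNA gene. After that the canonical transcript was preferred, then the longest intron. An Alu consensus of 281 nt was built by aligning 300 of the copies found on chromosome 19 (mafft 7.526) and searched with blastn 2.17.0. Motif shares were set beside windows 500 nt away in the same intron, which were not screened for Alu. Fisher's exact tests and permutation tests of mean log2 values (100000 resamples, scipy 1.17.1 and numpy 2.4.6) used peaks as units, with Benjamini-Hochberg adjustment over 10 tests. The Alu search and Fisher's exact test were checked on simulated data. For Fisher's exact test these were independent draws, so the check does not cover the grouping of peaks in genes. Named peaks are the 10 tallest, the 5 tallest near each kind of splice site and the 5 tallest with UUUUU upstream but no GUGUCA; named genes are the 10 with most peaks and PDLIM5. Gene lists went by symbol. The histone methyltransferase list took the prefixes KMT, EHMT, SETD, NSD, SUV39H, EZH, PRDM and DOT1L, leaving out NSDHL and EZHIP. The members, lists and tests were chosen with earlier results of these data known.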

Additional observations from a re-analysis of the deposited data

How the results depend on the processing

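No paired analysis was possible because the replicates were deposited as 1 pooled peak list per protein, and for the same reason no replicate could be left out. Of 58 alternatives for the 10 tested results, 43 kept direction and call, and of 29 for the 5 counts and shares without a test, 14 stayed within 1.5 times the count or within the 95% interval of the share. With 1 peak per host gene and class, intron length differed by 0.11 (log2), the lncRNA share by 0.647 percentage points and UUUUU by end motif by -0.692, none past the threshold, while PABPC4 overlap turned to 0.0532 and the share near a 3′ splice site by end motif to -0.789. The end motif share was then 58.8% and the repeated share 15.3%. Peaks with p of at most 0.001 gave an lncRNA difference of 0.940, not past the threshold, and an end motif share of 56.0%. Peaks at or above the median height gave 2642 peaks in 1272 genes, an lncRNA difference of 1.07 and a UUUUU difference of -1.90, neither past the threshold, an end motif share of 53.6% and a repeated share of 10.3%. Without GUGUCA peaks, 2313 peaks in 1275 genes remained, the first intron difference turned to 1.47 (not past the threshold) and the UUUUU share was 13.2%. The shortest covering intron turned the first intron difference to 3.62. Near 5′ splice sites the difference within 2000 nt was 1.83, not past the threshold. Near 3′ splice sites it was 0.573 within 100 nt and 1.25 with 250 nt added to the Alu search, both past it, and -3.74 within 2000 nt. A PABPC4 peak within 500 nt gave 0.293. The U run share was 29.2% for UUUU, 4.36% for UUUUUU and 4.45% inside the peak. The end motif share was 37.9% for GUGUCA wholly inside the peak and 56.2% for GUGUC. The causes were not tested. Peaks of 1 gene share its transcript, and no control library was used here.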
